A study of Mus musculus with 6 samples.

Results

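Eosinophils carry a distinctive set of granule proteins and of surface receptors, and 5 genes that code for them were followed here: the granule genes Epx, Prg2 and Prg3 and the receptor genes Il5ra and Ccr3. They were found by gene symbol among the 24411 genes of each expression file. All 5 were present once in every library and passed the filter on low counts, which left 12953 genes for testing. The genes were chosen because their levels differed between the groups compared, so their group differences are given as descriptions, without p-values. Epx moved against the others, so the 5 genes are named singly rather than as 1 eosinophil signature.

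Bulk RNA-seq was carried out on bone marrow cells of C57BL/6 mice that stained negative for lineage markers, and the methods add a positive sort for c-Kit. The control group comprised 3 libraries of CD45.2+ Brd9fl/fl mice without Cre, and the Brd9 KO group comprised 3 libraries of mice that carried the same floxed alleles with Mx1-Cre. Mice of both groups received pIpC, an interferon inducer that switches Mx1-Cre on, in 3 doses of 20 mg/kg, by the series description from 4 weeks after birth, and marrow of femora and tibiae was taken 8 weeks later. Sample notes for the same libraries instead time the injections from a transplant, and an age of 4 months, which is more than these intervals add up to, is given for the mice elsewhere. Mx1-Cre is active in blood stem and progenitor cells and in other interferon-responsive tissues, so deletion is not limited to 1 lineage, and the control mice lacked the Cre itself. The library totals ranged from 21151031 to 28500168 expected counts. Levels are given as CPM (counts relative to the TMM-scaled library total) and, for comparisons between genes, as TPM, which also divides by transcript length.

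Brd9 codes for a bromodomain subunit of the non-canonical BAF chromatin remodelling complex, and was read first as a check of the labels. Its level was 45.9, 49.1 and 52.1 CPM in control replicates 1 to 3 and 15.6, 13.5 and 21.03 CPM in Brd9 KO replicates 1 to 3. The groups did not overlap, and the difference was -1.56 ± 0.17 (log2, SE; edgeR quasi-likelihood test, adjusted p = 0.00345). Brd9 KO replicate 3 stood apart from the other 5 libraries on the second principal component of all tested genes (28.3% of the variance), at 33.4 where the others lay between -21.8 and 5.0. It was also the library with the highest summed level of late neutrophil markers, 7780 CPM against 1182 and 1336 CPM in the other Brd9 KO libraries and 1704 to 3180 CPM in the controls. Results on the 5 genes are therefore given with and without it.

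Eosinophils mature in the bone marrow from granulocyte progenitors and are driven by interleukin-5. During maturation they fill their specific granules with strongly cationic proteins. Prg2 codes for major basic protein, which forms the crystalline granule core and damages membranes of parasites and host cells, and Prg3 codes for its homolog. Epx codes for eosinophil peroxidase, a heme enzyme of the granule matrix that makes hypohalous acids. Il5ra codes for the ligand-binding chain of the interleukin-5 receptor, which signals with the common beta chain Csf2rb, and Ccr3 codes for the receptor for eotaxins that draws eosinophils into tissue.

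The 5 genes lie at 4 loci of the mouse genome (RefSeq coordinates of GRCm38.p6, equivalent to mm10). Strands and exon counts are those of GENCODE M21, with exons counted in the transcript linked to each gene's RefSeq entry. Prg2 at chr2:84980461-84983632 and Prg3 at chr2:84988196-84996559 are neighbours on the plus strand, 4564 bases apart, each with 6 exons. Epx lies at chr11:87863997-87875536 on the minus strand with 13 exons, Il5ra at chr6:106710375-106749037 on the minus strand with 13 exons, and Ccr3 at chr9:124017825-124031692 on the plus strand with 2 exons. The 250 bases before the annotated start site are shown for the members in the RefSeq promoter table. The members moved in both directions, so the start of Epx can be set beside the starts of genes that rose. Prg2 was not in that table. The windows are chr2:84987965-84988214 for Prg3, chr6:106749038-106749287 for Il5ra, chr9:124021721-124021970 for Ccr3 and chr11:87875537-87875786 for Epx. In Prg3 and Ccr3 the start site used lies inside the gene's full span. Each is written 5′ to 3′ on the strand of the gene, and capitals mark matches to the letters searched on both strands.
Prg3: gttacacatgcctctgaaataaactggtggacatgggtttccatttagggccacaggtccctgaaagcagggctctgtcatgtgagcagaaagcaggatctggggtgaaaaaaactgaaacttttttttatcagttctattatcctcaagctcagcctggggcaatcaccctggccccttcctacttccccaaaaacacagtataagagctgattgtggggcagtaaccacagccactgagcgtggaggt
Il5ra: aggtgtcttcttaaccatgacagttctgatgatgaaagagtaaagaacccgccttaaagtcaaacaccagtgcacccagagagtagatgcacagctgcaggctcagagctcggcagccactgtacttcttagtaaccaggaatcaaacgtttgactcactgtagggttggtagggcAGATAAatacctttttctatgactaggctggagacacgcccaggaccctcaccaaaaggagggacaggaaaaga
Ccr3: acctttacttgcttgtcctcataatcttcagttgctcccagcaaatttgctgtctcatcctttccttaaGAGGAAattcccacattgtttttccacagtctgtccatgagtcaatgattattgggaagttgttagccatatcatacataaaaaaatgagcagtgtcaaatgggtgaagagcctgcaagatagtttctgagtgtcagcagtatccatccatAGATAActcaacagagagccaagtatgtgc
Epx: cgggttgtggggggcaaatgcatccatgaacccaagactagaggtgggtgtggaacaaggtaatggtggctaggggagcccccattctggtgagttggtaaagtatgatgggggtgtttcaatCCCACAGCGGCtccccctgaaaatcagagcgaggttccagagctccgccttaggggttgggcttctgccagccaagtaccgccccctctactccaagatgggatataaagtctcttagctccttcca

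A set of 4 short motifs were searched, AGATAA for GATA factors, TTGCNNAA for C/EBP factors, GAGGAA for PU.1 and the core motif of CTCF. Both receptor genes held AGATAA, 74 bases before the start in Il5ra and 30 bases before the start in Ccr3, and Ccr3 also held GAGGAA 181 bases before its start. Epx held a match to the CTCF core letters, CCCACAGCGGC, 127 bases before its start and on its own strand. The Prg3 window held none of these 4 strings of letters, and other forms of the motifs were not searched. Of 32851 promoter windows of the same length, 9.99% held AGATAA, 9.56% TTGCNNAA, 23.3% GAGGAA and 6.31% the CTCF core. A match describes letters only, not a bound site.

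The granule genes split. Prg2 and Prg3 were higher in every Brd9 KO library than in any control library, each 2.76-fold in the means, while Epx was lower in every one. Both receptor genes were higher in every Brd9 KO library and by more than Prg2 and Prg3. All 5 genes passed an adjusted p of 0.1, 4 of them higher and 1 lower, in a comparison where 15.4% of all tested genes passed, 9.19% higher and 6.25% lower, and all 5 had groups that did not overlap, as 33.5% of tested genes did, 17.2% higher and 16.3% lower. The members were picked on this contrast, so these counts only describe them. In bulk libraries, a change in the number of cells of a type and a change in RNA per cell cannot be told apart.

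Prg2 was at 1931, 1375 and 1599 CPM in control replicates 1 to 3 and at 3453, 3355 and 6729 CPM in Brd9 KO replicates 1 to 3. The Brd9 KO libraries were all above the highest control, with replicate 3 well above the other 2. The mean went from 1635 ± 280 to 4512 ± 1920 CPM (SD, n = 3), a difference of 1.46 ± 0.29 on the log2 scale (SE) or 2.76-fold. Without Brd9 KO replicate 3 the difference was 1.06.

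Prg3 was at 58.1, 53.1 and 55.8 CPM in the controls and at 123, 109 and 229 CPM in the Brd9 KO libraries. Its libraries fell in the same pattern as those of Prg2, with no overlap and with Brd9 KO replicate 3 on top. The mean went from 55.7 ± 2.54 to 154 ± 65.6 CPM, a log2 difference of 1.47 ± 0.26 or 2.76-fold, and of 1.06 without Brd9 KO replicate 3.

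Epx was at 304, 302 and 324 CPM in the controls and at 103, 83.5 and 132 CPM in the Brd9 KO libraries. The highest Brd9 KO library was far below the lowest control. The mean went from 310 ± 12.05 to 106 ± 24.5 CPM, or 34.3% of the control level, a log2 difference of -1.54 ± 0.17. Leaving out Brd9 KO replicate 3, the Brd9 KO library with the highest Epx, gave -1.73.

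Il5ra was low in the controls, at 2.31, 2.19 and 2.28 CPM, and was at 10.1, 12.005 and 9.84 CPM in the Brd9 KO libraries. Both groups were tight, and Brd9 KO replicate 3 was here the lowest of its group. The mean went from 2.26 ± 0.061 to 10.6 ± 1.19 CPM, a log2 difference of 2.23 ± 0.18 or 4.70-fold, and of 2.28 without that library. These levels rest on 52 to 62 expected counts per control library and 204 to 330 per Brd9 KO library.

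Ccr3 was at 0.870, 1.64 and 1.73 CPM in the controls and at 9.70, 11.2 and 16.3 CPM in the Brd9 KO libraries. Control replicate 1 was the lowest library and Brd9 KO replicate 3 the highest, with no overlap between groups. The mean went from 1.42 ± 0.47 to 12.4 ± 3.47 CPM, a log2 difference of 3.13 ± 0.32, and of 2.88 without Brd9 KO replicate 3. The controls hold only 23 to 47 expected counts of Ccr3, so its control level is the least precise of the 5, and the Brd9 KO libraries hold 237 to 338.

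**Figure D1:**
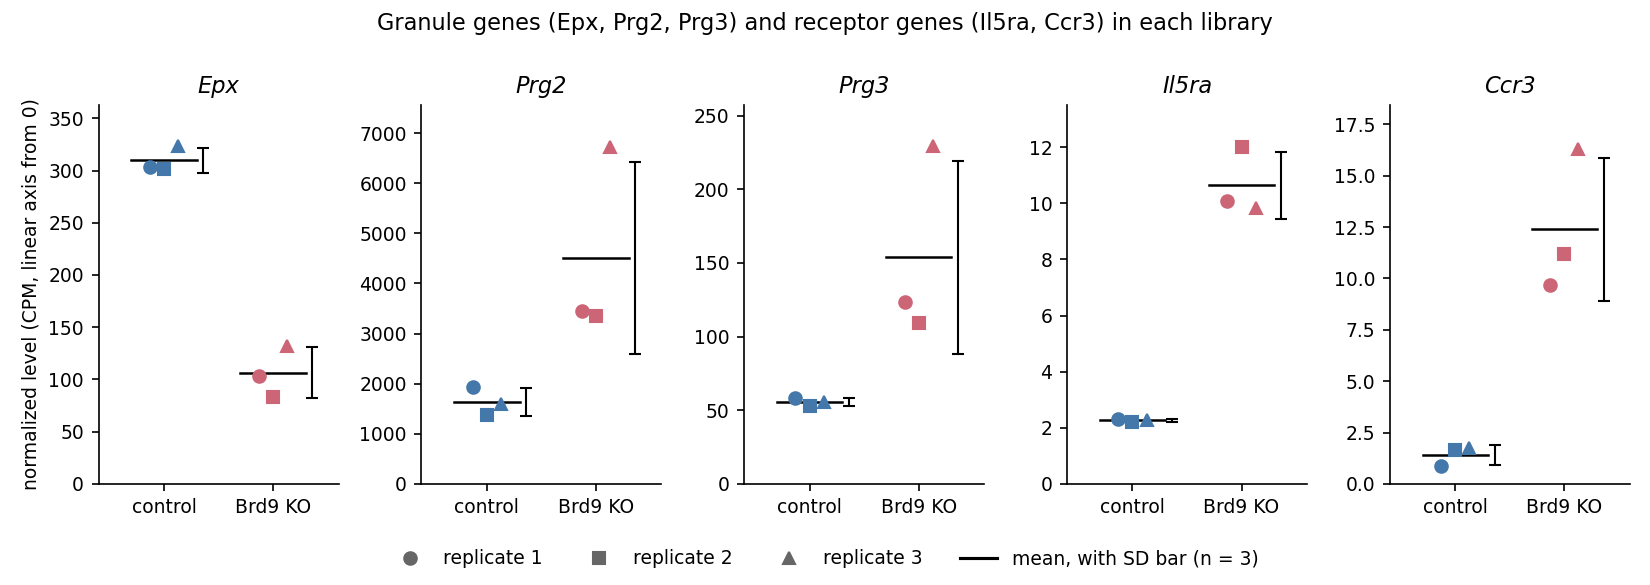
Level of each gene in CPM (vertical axes, linear from 0, a separate scale per gene) in the 3 control and 3 Brd9 KO libraries, with marker shape giving the replicate number, a horizontal line for the mean and a bar for the SD (n = 3). Epx is lower in every Brd9 KO library, at 83.5 to 132 CPM against 302 to 324 CPM, and the other 4 genes are higher in every Brd9 KO library.

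Per length, the controls ordered the genes Prg2, Epx, Prg3, Il5ra and Ccr3. Prg2 stood at 2893 to 3230 TPM, Epx at 131 to 164 TPM, Prg3 at 82.9 to 95.0 TPM, Il5ra at 0.74 to 0.87 TPM and Ccr3 at 0.30 to 0.72 TPM. No neighbours in this order overlapped, although the lowest Il5ra library, at 0.74 TPM, was only just above the highest Ccr3 library, at 0.72 TPM. In the Brd9 KO libraries Prg3, at 235 to 367 TPM, stood above Epx, at 53.9 to 63.6 TPM, and Il5ra at 3.52 to 5.75 TPM overlapped with Ccr3 at 4.64 to 6.36 TPM. Prg2 was at 7997, 8502 and 12640 TPM there, and ranked 4, 2 and 1 among all 24411 genes, against ranks of 70, 70 and 69 in the controls. Epx moved the other way, from ranks of 820 to 981 to ranks of 2070 to 2898.

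Ratios within a library do not depend on its scaling. The Prg2 to Prg3 ratio of TPM was 39.0, 30.4 and 33.7 in the controls and 32.9, 36.1 and 34.5 in the Brd9 KO libraries, or 34.4 ± 4.31 against 34.5 ± 1.59 (SD, n = 3), so that the groups overlapped on this ratio. The Prg2 to Epx ratio was 24.7, 17.8 and 19.3 in the controls and 131, 158 and 199 in the Brd9 KO libraries, or 20.6 ± 3.63 against 162 ± 34.1, with a wide gap between the groups.

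The comparison of granule genes with receptor genes depended on which granule gene was read. The mean log2 TPM of the 3 granule genes less that of both receptor genes was 9.44, 8.81 and 8.88 in the controls and 6.76, 6.36 and 7.14 in the Brd9 KO libraries, a difference of -2.29 between the group means. The difference was -4.26 for Epx against the receptors and -1.30 for Prg2 and Prg3 against them, both readings chosen after the values were seen. The Epx to Il5ra ratio was 176, 186 and 191 in the controls and 13.8, 9.37 and 18.1 in the Brd9 KO libraries, while the Ccr3 to Il5ra ratio was 0.405, 0.828 and 0.826 against 1.05, 1.02 and 1.81.

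**Figure D2:**
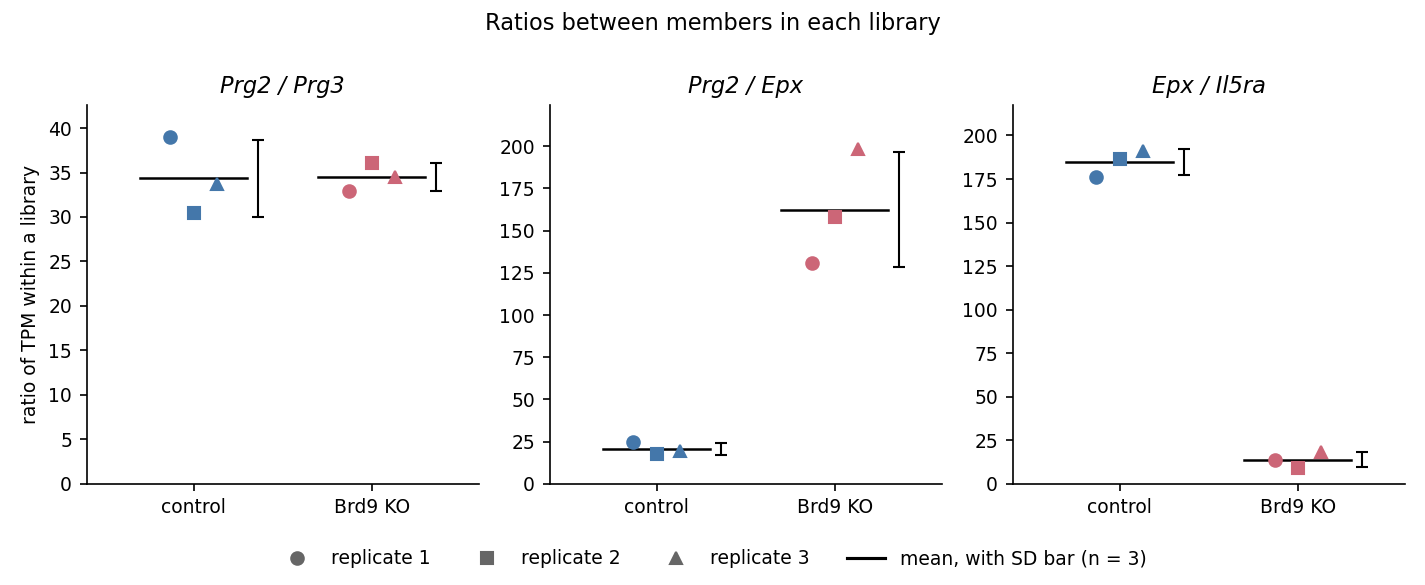
Ratio of TPM between 2 genes within each library (vertical axes, linear from 0) for control and Brd9 KO, with marker shape for the replicate number, lines for means and bars for the SD (n = 3). Prg2 to Prg3 is 34.4 and 34.5 in the group means, Prg2 to Epx goes from 20.6 to 162, and Epx to Il5ra goes from 185 to 13.8.

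The counts of these genes came from reads that RSEM did not have to divide. All 30 expected counts of the 5 genes over 6 libraries were whole numbers within 0.005, whereas 3.88% to 4.35% of expressed genes per library had a count that was not. Prg2 and Prg3 share 67.6% of their aligned coding bases, and the longest run of bases they have in common, tgccccaaggaagaggacacaac, is 23 bases long. Epx shares 72.3% with Mpo, the peroxidase of neutrophil granules, and 26 bases at most in a row. No gene of the GENCODE annotation overlaps any of the 5, and in the RefSeq coordinates given above P2rx3, of the neighbours read, does so over the last 11 bases of Prg3.

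The profile of each gene over the 6 libraries, taken as log2 CPM less the control mean, was compared with every other tested gene of at least 2 CPM by the root-mean-square (RMS) difference, where 0 means identical profiles. Prg2 and Prg3 were 0.111 apart. The nearest gene outside the 5 was for both Ear1, an eosinophil-associated ribonuclease, at 0.101 from Prg2 and 0.138 from Prg3. Ccr1 and Adora3, a chemokine receptor and an adenosine receptor, followed for both. Epx was 2.10 from Prg3 and 2.11 from Prg2, and its nearest profile among the candidates was that of Brd9 itself, at 0.045, followed by the immediate early factor Egr1 at 0.136 and the collagen gene Col5a1 at 0.157.

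In the Brd9 KO libraries 1 to 3, Epx lay at -1.58, -1.89 and -1.23 relative to the control mean. Il5ra lay at 2.15, 2.41 and 2.12, with Fstl1 (0.127), Serping1 (0.163) and Gabbr1 (0.194) as nearest profiles. Ccr3 lay at 2.84, 3.05 and 3.59, with Alox15 (0.306), Mag (0.361) and Gzma (0.532) nearest, all of them farther off than the nearest genes of the other members. All such profiles share the same 6 libraries and are dominated by the group difference, so nearness describes size and direction only.

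**Figure D3:**
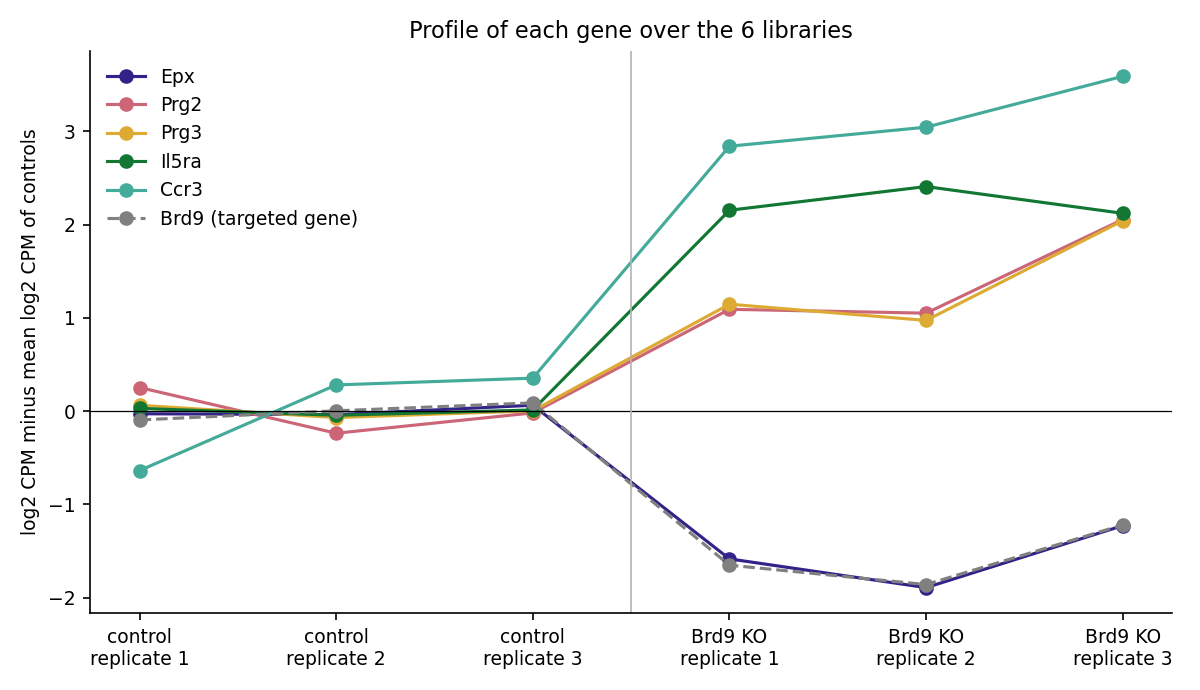
Log2 CPM of each gene less its mean over the controls (vertical axis) in the 6 libraries (horizontal axis, controls left and Brd9 KO right), with Brd9 as a dashed line. Prg2 and Prg3 run together up to 2.06 and 2.04 in Brd9 KO replicate 3, and Epx runs with Brd9 below 0.

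Genes around the members were read to see whether the loci moved as a whole. Of 40 other genes among the 5 on each side of a member, 22 were tested, 3 passed higher and 4 lower at an adjusted p of 0.1 (edgeR quasi-likelihood test), where 15.4% of all tested genes passed, and the count fell to 3 when any 1 library other than Brd9 KO replicate 3 was left out. The chemokine receptor cluster around Ccr3 held members in both directions: Ccr1 rose by 1.45 ± 0.21 (adjusted p = 0.00897), whereas Ccr2 fell, at -0.67 ± 0.20 (adjusted p = 0.0826), and Cxcr6 did not pass at -0.95 (adjusted p = 0.122). Fyco1, next to these, was higher by 0.78 (adjusted p = 0.0529). Near Prg2 and Prg3, Slc43a1 was at -0.62 (adjusted p = 0.00906) and Timm10 at -0.66 (adjusted p = 0.0799), both lower, and the 5 other tested neighbours did not pass. None of the 4 tested neighbours of Il5ra passed.

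Mpo lies 59585 bases from Epx and is the closest relative of Epx among the genes compared. It fell from 10316 to 5248 CPM, a log2 difference of -0.98 ± 0.12 (edgeR, adjusted p = 0.00574), while Mks1, Dynll2 and Srsf1 near Epx did not pass. Lpo, the peroxidase of milk and saliva, had 1, 0 and 0 expected counts in the controls and 5, 10 and 2 in the Brd9 KO libraries, too few to be tested.

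Other genes of eosinophils moved in the direction of Prg2, Prg3 and the receptors. Of 8 tested, 7 rose and none fell, where 9.19% of all tested genes rose, with a median log2 difference of 1.54 against 0.02 over all tested genes. This list and those read below were chosen with earlier results of these data known, so their counts only describe them. Alox15, which codes for a lipid-oxidizing enzyme of eosinophils and some macrophages, went up from 22.2 to 235 CPM (3.40 ± 0.21, edgeR adjusted p = 0.000868). The eosinophil-associated ribonucleases Ear6 (2.34 ± 0.26, adjusted p = 0.00345) and Ear2 (2.06 ± 0.28, adjusted p = 0.00726) rose, as did the histamine receptor Hrh4 (1.498 ± 0.27, adjusted p = 0.0186). Siglecf, a surface lectin used to identify eosinophils and named after its values were seen, rose by 0.43 ± 0.10 (adjusted p = 0.0418), and Il1rl1 did not pass at 0.14. The Ear genes are near-identical copies and Ear1 and Ear2 carry counts that are not whole in all 6 libraries, so their split is uncertain. The number that rose was 4 without control replicate 2.

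The genes listed as partners and signalling of the interleukin-5 receptor moved in part. Whether their change is tied to that of Il5ra was not tested. Of 15 tested partners, 7 rose, none fell and 8 did not pass, where 9.19% of all tested genes rose, and the median log2 difference was 0.38 against 0.02 over all tested genes. The common beta chain Csf2rb rose by 0.86 ± 0.17 (edgeR, adjusted p = 0.0240) and its close copy Csf2rb2 by 1.13 ± 0.13 (adjusted p = 0.00435), although these copies share reads and their split is uncertain. The kinases Jak2 (0.65 ± 0.14, adjusted p = 0.0307) and Lyn (0.38 ± 0.09, adjusted p = 0.0462) and the feedback inhibitor Cish (0.90, adjusted p = 0.0593) rose too. Stat5a and Stat5b, the main transcription factors of the pathway, were at -0.02 and 0.07. Both carry counts that are not whole in all 6 libraries, so their split is uncertain too. The alpha chains of the related receptors, Csf2ra and Il3ra, were at 0.23 and 0.08. Neither the Stat5 genes nor these alpha chains passed. With 1 library left out, the number that rose was 2 when that was Brd9 KO replicate 1 and 3 when it was control replicate 2 or 3.

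Transcripts of the ligands were scarce in these cells. Il5 had 1, 1 and 2 expected counts in the controls and 0 in each Brd9 KO library, the eotaxin Ccl11 had 1 count in all, and Il3, Ccl7 and Ccl8 were listed at 0. Csf2 had 3 to 10 counts per library and the eotaxin Ccl24 had 0 to 8. Only Ccl5, a chemokine that also binds Ccr3, was abundant enough to be tested, at 0.85 ± 0.28 higher (edgeR, adjusted p = 0.0999), a call that was lost under 6 of 13 alternatives.

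Transcription factors of eosinophil development mostly did not pass. Of 12 tested, 2 rose, 1 fell and 9 did not pass, where 9.19% of all tested genes rose and 6.25% fell. Gata2, which maintains progenitors and acts in basophil and mast cell development, rose by 1.27 ± 0.14 (edgeR, adjusted p = 0.00369), and Cebpa, needed for granulocyte commitment, by 0.38 ± 0.09 (adjusted p = 0.0447). Irf8, a factor of monocyte and dendritic cell fate, fell, at -0.76 ± 0.13 (adjusted p = 0.0153). Gata1, a factor of eosinophil development, was at -0.05, and Zfpm1, its cofactor, at 0.27. Cebpe, a factor of granule gene expression, was at 0.55 (edgeR, adjusted p = 0.197), and Spi1 at -0.07. Such bulk levels do not give the level of a factor in eosinophil precursors. The number that rose was 1 when any control library or Brd9 KO replicate 1 was left out. Of 10 genes of granule packaging and release, 1 rose, where 9.19% of all tested genes did. It was Unc13d, a priming factor of granule exocytosis (0.67 ± 0.09, adjusted p = 0.00792), and the most abundant, the granule proteoglycan Srgn and the tetraspanin Cd63, were at -0.35 and 0.34 and did not pass.

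**Figure D4:**
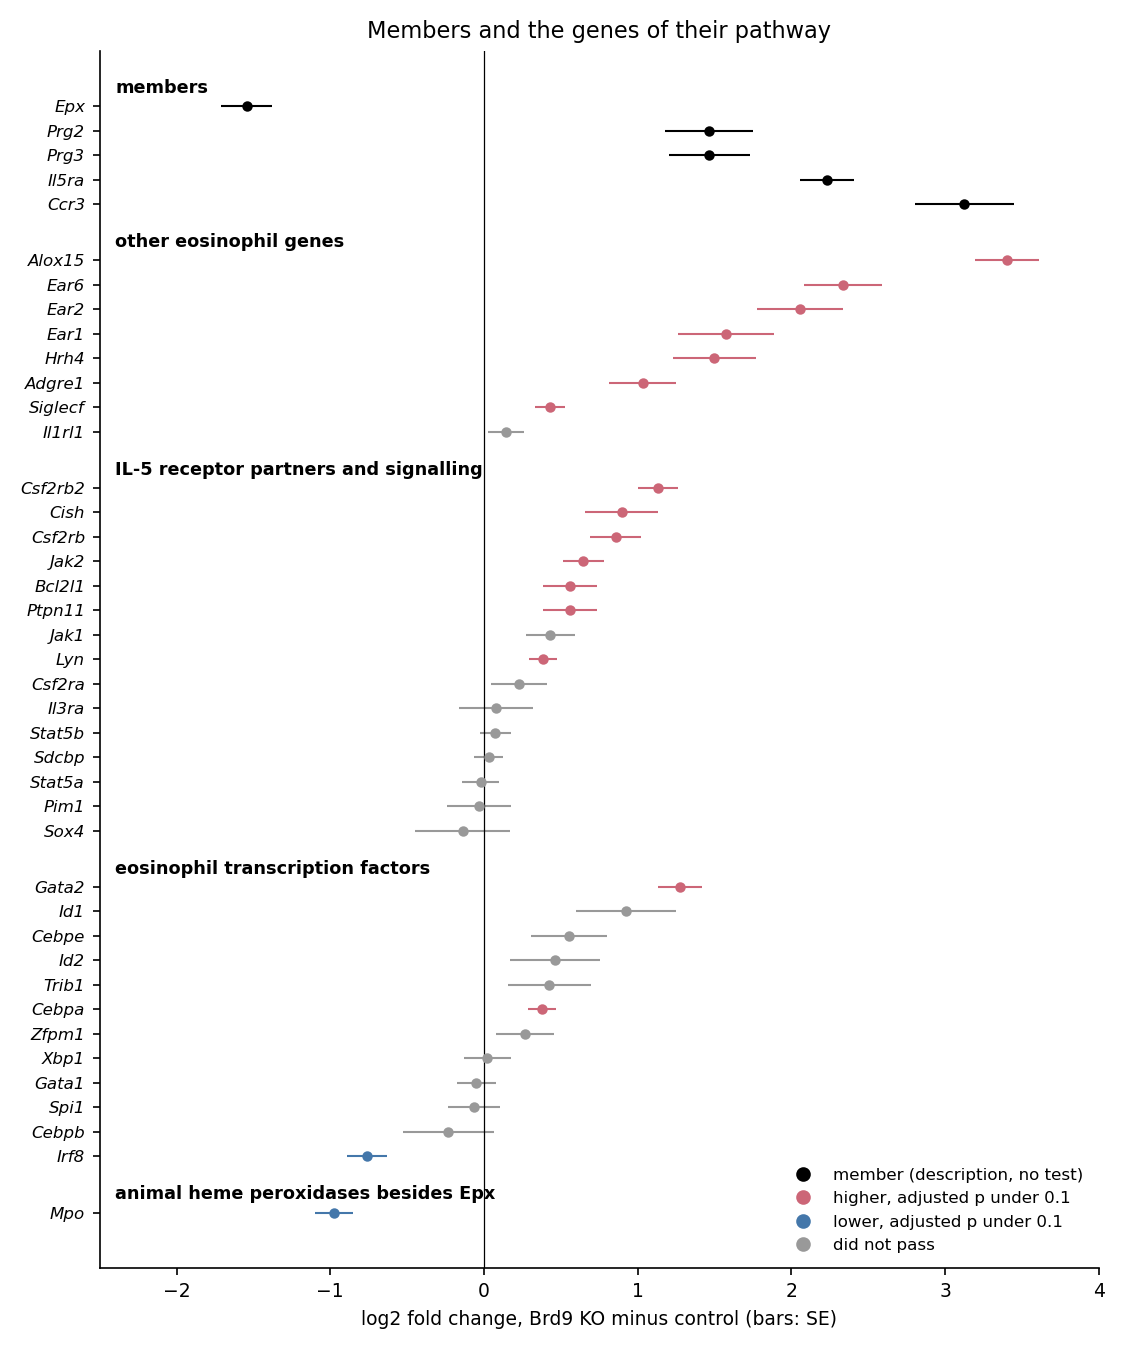
Log2 difference between Brd9 KO and control (horizontal axis, bars show the SE) for the 5 members in black and the tested genes of 4 lists, red where higher and blue where lower at an adjusted p of 0.1. Other eosinophil genes sit to the right with Prg2, Prg3, Il5ra and Ccr3, and Mpo and Irf8 sit to the left with Epx.

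Markers of other cells that carry some of these transcripts were read beside the members. Basophils also carry Ccr3 and Prg2, and 6 of 7 tested basophil and mast cell markers rose (9.19% of all tested genes did), with summed levels of 2047 to 2667 CPM in the controls and 3491 to 5317 CPM in the Brd9 KO libraries. Cd200r3 (1.62, edgeR adjusted p = 0.00122), Ms4a2 (1.28, adjusted p = 0.00246), Cpa3 (1.12, adjusted p = 0.00345) and Fcer1a (0.998, adjusted p = 0.0150) led them. Of the mast cell proteases listed, Tpsb2, Mcpt4 and Cma1 were at or near 0, with at most 3, 1 and 4 expected counts in any library. The mast cell protease Cpa3, by contrast, was at 170 CPM in the controls and 371 CPM in the Brd9 KO libraries. The tested members of the other eosinophil list summed to 261 to 294 CPM in the controls and 836 to 1552 CPM in the Brd9 KO libraries. The part of basophils in the change of Prg2, Prg3, Il5ra and Ccr3 was not tested.

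Of 9 late neutrophil markers none rose and 1 fell (6.25% of all tested genes fell), Camp at -3.55 (edgeR, adjusted p = 0.0573), and the number that fell was 6 without Brd9 KO replicate 3 and 0 when any other library was left out. Camp was at -5.69 without Brd9 KO replicate 3. S100a8 and S100a9 were at 0.71 and 0.92 and did not pass, and without Brd9 KO replicate 3 the latter pair was at -0.43 and -0.57. Of 7 macrophage markers 5 rose and 1, Vcam1, fell (9.19% and 6.25% of all tested genes), with summed levels of 79.7 to 117 CPM in the controls and 80.0 to 120 CPM in the Brd9 KO libraries. Vcam1 was the most abundant of them in the controls, and the sum of the other 6, taken after the values were seen, was 29.97 to 44.5 CPM in the controls and 62.97 to 88.2 CPM in the Brd9 KO libraries. The number that rose was 3 without control replicate 1 or without control replicate 2. Kit, the gene of the c-Kit sort, and Cd34, a progenitor marker not named in that sort, were at 0.11 and 0.16 and did not pass. Of 6 tested genes of the lineage markers 2 rose (9.19% of all tested genes did). Itgam, also an eosinophil surface integrin, rose from 53.4 to 122 CPM (edgeR, adjusted p = 0.0191) and Ptprc by 0.47 (adjusted p = 0.0527). Levels are per gene and do not separate the forms of Ptprc. The part of the cells these markers stand for in the change of the 5 genes was not tested.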

How the data were processed

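Per the labels, poly(A)-selected RNA of lineage-negative marrow was sequenced in 3 control and 3 Brd9 KO libraries. Strand handling is given differently in the labels (unstranded) and in the methods (stranded). The authors aligned reads to mm10 with STAR and quantified genes with RSEM in an nf-core pipeline, and the deposited files hold expected counts, TPM and effective lengths per gene. Library totals of 21151031 to 28500168 counts limit the precision of low genes such as Ccr3.

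Expected counts were rounded to whole numbers, filtered with filterByExpr, scaled by TMM and tested with edgeR 4.0.16 (R 4.3.3) in a quasi-likelihood fit of group over all 12953 genes, with Benjamini-Hochberg adjustment and a threshold of 0.1. The authors describe biological triplicates for each group, but nothing in the labels ties a library to a separate animal. The p-values measure the spread between these libraries. Alternatives, with their effect in the closing section, were RLE normalization (the size factors of DESeq2), no TMM, no filter, DESeq2 1.42.0, limma 3.58.1 on log2(TPM + 1), a replicate block, a threshold of 0.05, and each library left out. Fits were tested on simulated data. TPM served for levels between genes and ratios.

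The members and lists were chosen with earlier results of these data known. Named genes were the 5 members, Brd9, up to 4 called genes with the smallest p per list (the 2 most abundant where at most 1 was called), any tested gene of the interleukin-5, transcription factor and peroxidase lists, called or related neighbours, and the 3 nearest profiles per member. The other eosinophil list held 16 genes, of which 14 were in the files. Promoter windows and coordinates came from RefSeq GRCm38.p6, and strands, exon counts and coding sequences of the members from GENCODE M21. Some genes of the lists and neighbourhoods are counted but not reported by name here.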

Additional observations from a re-analysis of the deposited data

How the results depend on the processing

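All 5 members kept their direction under every alternative run. Over these, Epx ranged from -1.73 to -1.34, Prg2 from 1.06 to 1.64, Prg3 from 1.06 to 1.66, Il5ra from 1.59 to 2.32 and Ccr3 from 2.07 to 3.30 (log2 difference). The lowest values of both receptors, 1.59 and 2.07, came from limma on log2(TPM + 1), a scale that shrinks differences of low genes. The granule to receptor difference of -2.29 was -1.21 on log2(TPM + 1) and -3.80 for Epx against Il5ra alone. Readings added after seeing the data gave -1.30 for Prg2 and Prg3 against the receptors, -4.26 for Epx against them and -2.96 for Epx against Prg2 and Prg3.

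Counts moved more. The 1999 calls became 1015 at an adjusted p of 0.05, and ranged from 641 without Brd9 KO replicate 1 to 4150 without Brd9 KO replicate 3 when 1 library was left out. Of the 1999 calls 59.5% were higher. The share was 74.1% without TMM (1402 higher, 489 lower) and 83.3% with limma on TPM (1114 higher, 224 lower), where the median log2 difference of all genes was 0.10 and 0.18 against 0.02. The 20 calls in the eosinophil, interleukin-5, ligand, transcription factor, peroxidase and packaging lists ranged from 11 (control replicate 2) to 27 (Brd9 KO replicate 3) with the library in brackets left out, and were 13 without control replicate 3 and 12 without Brd9 KO replicate 1. The 7 called neighbours became 3 with limma and 3 at an adjusted p of 0.05, and ranged from 3 to 9 with 1 library left out. Deviations of same-numbered libraries from their group means correlated at -0.098, 0.611 and 0.011. With 3 libraries per group, this cannot decide whether replicate numbers pair the libraries. With a replicate block 2077 genes were called. At 23 to 47 counts per control library, depth limits Ccr3.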
